A study of Glycine max with 60 samples.

Results

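Of 56044 soybean genes counted in developing seeds, 6 were switched off after stage 1 in all 4 lines of the series. They were selected on their own values. Read counts were divided by median-of-ratios size factors over all 60 libraries (normalised read counts, below), averaged per line and stage, and a gene was kept when its stage 1 mean was at least 50, at least 4 times its stage 2 mean and at least 16 times its stage 5 mean in each line. The 6 genes are 3 RADIALIS-like (RAD-like) MYB genes (Glyma.06G309200, Glyma.19G127900 and Glyma.02G055900), a cytokinin oxidase gene (Glyma.09G225400), a DUF581 gene (Glyma.01G002000) and a lectin gene (Glyma.20G158700). Because stages 1, 2 and 5 chose them, the differences between these stages are given as descriptions with no test.

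RNA from developing seeds was sequenced in 60 libraries, 3 for each of 4 lines at 5 stages of seed length, S1 (2 to 4 mm), S2 (4 to 6 mm), S3 (6 to 8 mm), S4 (8 to 10 mm) and S5 (10 to 12 mm). The line 3mlpa has low phytic acid and the genotype mips1/mrp-l/mrp-n, with mutations in an inositol phosphate synthase gene and in a pair of ABC transporter genes, and 3MWT is its sister line with the normal alleles MIPS1/MRP-L/MRP-N. The line 1mlpa is mips1/MRP-L/MRP-N, and 1MWT is its sister with all 3 normal alleles. The first pair are recombinant inbred lines that can differ at other loci, the second pair are near-isogenic, each genotype is 1 line, and no line received a treatment. The labels mark the 3mlpa and 3MWT libraries as re-analysed data, so that line pair and sequencing effort cannot be told apart. Seeds were sampled in triplicate, and no label says whether the 3 samples came from separate plants, so p-values measure only the spread between these samples. Total counts ranged from 17359192 to 42800413 per library. The 100 storage protein and oil body genes of the seed marker list had a summed normalised count with a median of 117469 at S1 and 7267300 at S5. Transcripts of the mutated genes were present in all 60 libraries, with MIPS1 (Glyma.11G238800) at 10038 to 87323 normalised counts, which does not check the genotypes because the mutations need not lower the transcript.

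In a young legume seed the maternal seed coat and the endosperm make up most of the tissue, and the cotyledons of the embryo later fill the seed and store protein and oil. In such bulk samples fewer cells of a type and less RNA per cell cannot be told apart. RADIALIS was described in snapdragon, where this small protein with a single MYB domain acts in flower asymmetry and antagonises the related factor DIVARICATA. Cytokinin oxidases break down cytokinins, hormones that promote cell division, and legume lectins are proteins that bind sugars.

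Some S1 libraries stood apart in the members' values, and the members moved together. In 3MWT, replicate 2 had the lowest value of the 3 libraries for 6 of 6 members, where it was lowest for 45.3% of the 27586 genes with an S1 mean of at least 50 in every line. In 1MWT, replicate 1 was lowest and replicate 2 highest for 6 of 6 members, against 31.9% and 32.0% of those genes. In 1mlpa, replicate 3 was lowest for 6 of 6 (31.7% of genes), and in 3mlpa, replicate 2 was highest for 6 of 6 (36.8% of genes). The 6 genes were read in the same libraries and are not 6 independent observations. The selection used these same S1 and S2 values and favoured some of these library orders, so the counts of 6 are partly fixed by it. At S2, 1MWT replicate 3 was lowest for 6 of 6 members, and its column is 1 of 3 whose name carries a suffix after the replicate number. The share of all genes lowest in that library was not computed. The number of genes selected moved most with the 1MWT libraries, and was 1 without 1MWT replicate 2 at S1, 2 without 1MWT replicate 3 at S2, and 13 or 14 without 1MWT replicate 1 at S1 or replicates 1 or 2 at S2.

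**Figure D1:**
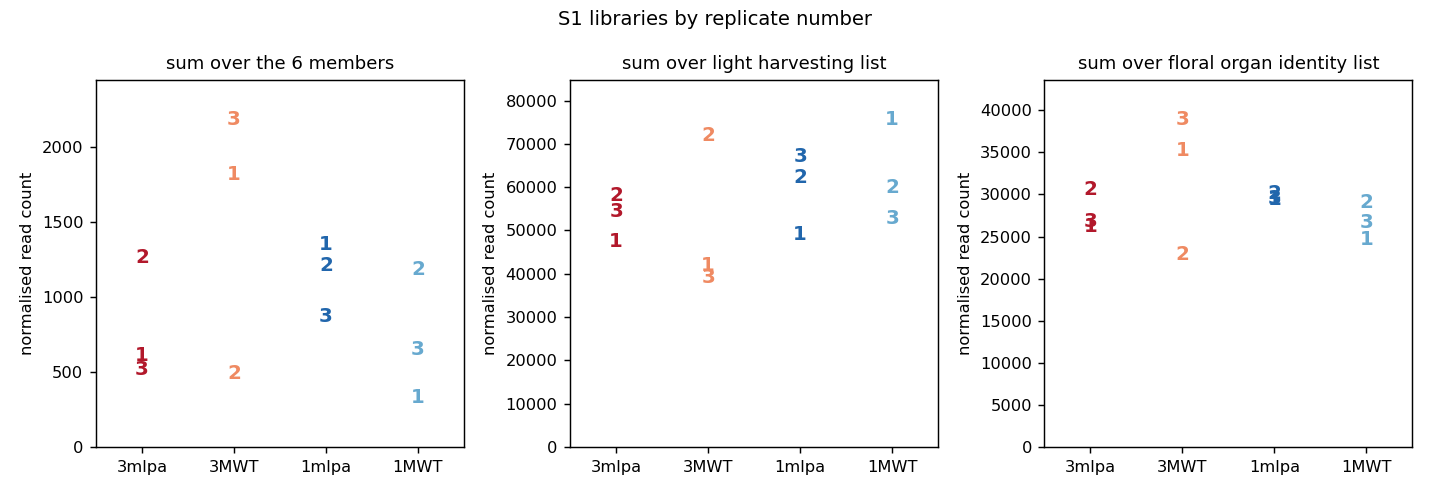
Sums of normalised read counts in the 12 S1 libraries for the 6 members (left), 115 light harvesting and photosystem genes (middle) and 19 floral organ identity genes (right), each library drawn as its replicate number within its line. Replicate 2 of 3MWT is lowest for the members and the floral list and highest for the light harvesting list among the 3MWT libraries.

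The summed normalised count of the 6 members was 609, 1259 and 513 in replicates 1, 2 and 3 of 3mlpa at S1, and 1813, 486 and 2184 in 3MWT. It was 1346, 1208 and 870.4 in 1mlpa, against 329, 1181 and 652 in 1MWT. Replicate 2 was the high library in 3mlpa and the low one in 3MWT, and replicate 1 was the low one in 1MWT. The 115 light harvesting and photosystem genes, whose sum had a median over libraries of 56219 at S1 and 126203 at S2, were at 47341, 57961 and 54477 in 3mlpa and 41937, 71883 and 39231 in 3MWT at S1. They were at 49159, 62307 and 67001 in 1mlpa, against 1MWT at 75716, 59928 and 52680. The library with the lowest member sum thus had the highest light harvesting sum in 3MWT, 1mlpa and 1MWT, but not in 3mlpa. The 100 storage protein and oil body genes, whose sum also rose after S1, had their highest library at the lowest member sum in 2 of 4 lines. They shared the lowest library with the members in 1 of 4 lines, 3MWT, where they were at 127084, 105596 and 116942. The 19 floral organ identity genes, MADS box factors that also pattern ovules, all had counts at S1 and summed to 22909 in 3MWT replicate 2, against 35207 and 38953 in the other 3MWT libraries. Their sums spanned 26219 to 30643 for 3mlpa, against 22909 to 38953 for 3MWT. In the other pair they spanned 29338 to 30162 for 1mlpa, against 24591 to 28990 for 1MWT. The 27 genes of the pollen and anther list, taken by annotation words, moved most like the members of the 9 lists examined, with the same highest library in 4 of 4 lines and the same lowest in 3 of 4. Their sums were 9711, 11178 and 9931 in 3mlpa, against 15606, 9308 and 17118 in 3MWT. They were 12739, 11740 and 11110 in 1mlpa, against 7653, 9163 and 9020 in 1MWT. The 64 genes of the wound, touch and jasmonate list had the wider swing in the first pair, at 59112, 81774 and 58067 in 3mlpa and 142463, 58777 and 176890 in 3MWT, and shared the highest library with the members in 2 of 4 lines. None of the genes of the light harvesting, floral, pollen and wound lists was at 0 in all S1 libraries. The other 5 lists, with the storage list among them, shared the highest library with the members in 0 to 3 of 4 lines. The part of these library differences in the members' values was not tested.

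**Figure D2:**
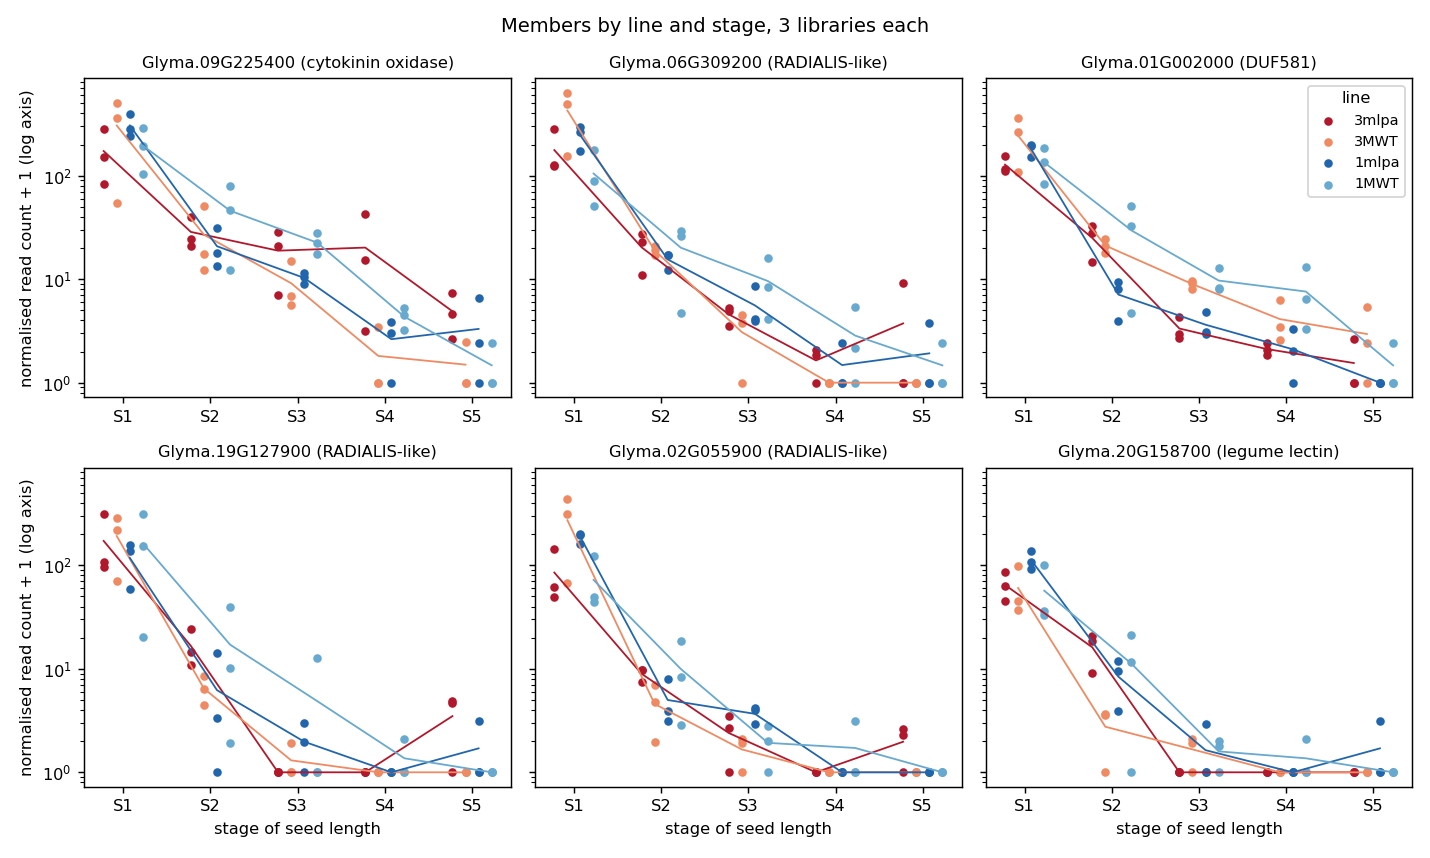
Normalised read count plus 1 (log axis) of the 6 members by stage of seed length, with 1 point per library and lines through the group means (n = 3). In 23 of 24 combinations of gene and line the S1 libraries lie above all S2 libraries (17.7% of such combinations over the 27586 genes), a count that the selection on S1 and S2 largely fixed, and at S4 and S5 most points are at or near 0 counts.

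The members were not abundant genes even at S1. On the per-length RPKM scale, averaged over the 12 S1 libraries, the RADIALIS-like gene Glyma.19G127900 had the highest level at 35.3, followed by Glyma.06G309200 at 15.4, Glyma.01G002000 at 9.32, Glyma.09G225400 at 5.28, Glyma.20G158700 at 3.92 and Glyma.02G055900 at 3.82. This order depends on gene length, which the counts and RPKM put at 228 bases for Glyma.19G127900 and 1989 for Glyma.02G055900. The mean normalised counts of these 2 genes at S1 were close, at 160 and 153. After S1 the mean normalised counts were lower at each step to S3. Over the 24 combinations of gene and line, the S2 mean was between 1.32% and 23.8% of the S1 mean, and the S3 mean was below the S2 mean in all 24. At S4, 10 of 24 combinations had no read in any of the 3 libraries, and at S5 again 10 of 24. Among the others the median was 0.766% of the S1 mean at S4 and 0.617% at S5. The 24 combinations come from 6 genes read in the same libraries and are not independent. The shares of all genes with a lower S3 mean or with no read at S4 or S5 were not computed.

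Glyma.06G309200 is closest in Arabidopsis to RAD-like 1 and in UniRef to a RADIALIS protein of Medicago. At S1 it had 125, 279 and 124 normalised counts in 3mlpa and 492, 154 and 629.8 in 3MWT. In the other pair it had 294, 261 and 173 in 1mlpa and 50.2, 174 and 87.1 in 1MWT. Libraries of each pair overlapped, by 3MWT replicate 2 in the first pair and by 1MWT replicate 2 in the second. At S2 the means were 19.4 ± 8.38 for 3mlpa against 18.0 ± 1.95 for 3MWT, and 14.5 ± 2.86 for 1mlpa against 19.2 ± 13.4 for 1MWT (SD, n = 3 each). The lines thus lay closer together at S2 than at S1. From S3 to S5 no library exceeded 15.2 counts, and all 6 libraries of 3MWT at S4 and S5 were at 0, which allows at most 0.321% and 0.339% of the S1 mean (3 counts over the 3 libraries of a stage).

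Glyma.02G055900 also matches RAD-like 1 best, and its UniRef match is the MYB factor MYB164 of Medicago. It had 60.4, 144 and 48.2 normalised counts at S1 in 3mlpa and 313, 66.6 and 436 in 3MWT. It had 195, 202 and 161 in 1mlpa, against 43.5, 122 and 48.1 in 1MWT. All 3 libraries of 1mlpa were above all 3 of 1MWT, as for 6.41% of the 27586 genes, while 3MWT replicate 2 lay within the range of 3mlpa. At S2 it was at 8.71, 6.49 and 8.68 in 3mlpa and 0.943, 6.02 and 3.77 in 3MWT, so that the mean was 9.46% of S1 in 3mlpa and 1.32% in 3MWT. In the other pair the S2 mean was 2.15% of S1 in 1mlpa and 12.6% in 1MWT. At S4 there was no read in 11 of 12 libraries and at S5 none in 10 of 12.

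Glyma.19G127900 matches RAD-like 6 of Arabidopsis and the soybean MYB factor MYB142. Its S1 values were 95.8, 312 and 106 normalised counts in 3mlpa and 285, 69.4 and 219 in 3MWT. They were 156, 137 and 58.1 in 1mlpa and 19.3, 315 and 152 in 1MWT. This was the widest spread of any member, 16.3 times between the lowest and the highest S1 library, and both of these were 1MWT libraries. It was also the only member whose S1 and S2 libraries overlapped in a line, since 1MWT replicate 1 at S1 was below 1MWT replicate 2 at S2 (38.2). It was at 0 in all 3mlpa libraries of S3 and S4, and had 3.84 and 3.63 normalised counts in 2 of the 3 at S5.

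Glyma.09G225400, the cytokinin oxidase, is closest to CKX6 of Arabidopsis. At S1 it had 150.3, 284 and 81.5 normalised counts in 3mlpa and 362, 53.2 and 498 in 3MWT. Its 1mlpa values were 397, 279 and 239, against 102, 287 and 194 in 1MWT. In 3mlpa and 1MWT, 10.4% and 11.1% of the S1 mean remained at S3, against 2.68% in 3MWT and 3.04% in 1mlpa. At S4 it had 14.2, 2.16 and 41.2 counts in 3mlpa and 0, 2.44 and 0 in 3MWT, so the high 3mlpa mean came from 2 of 3 libraries. At S5 the 3mlpa libraries had 1.64, 6.4 and 3.63, and the 3MWT libraries had 1.48, 0 and 0.

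Glyma.01G002000 carries a DUF581 domain, a short zinc finger of which some Arabidopsis proteins bind the SnRK1 kinase. Its S1 values were 116, 156 and 109 normalised counts in 3mlpa and 264, 106 and 358 in 3MWT. They were 197, 193 and 149 in 1mlpa and 82.1, 183 and 135 in 1MWT. It had the smallest S1 range but 1 of the 6 members, 4.36 times. At S2 it was at 8.42, 6.95 and 2.93 in 1mlpa and at 31.6, 50.4 and 3.76 in 1MWT, where replicate 3 stood far below the other libraries. It still had reads in nearly all later libraries before S5, being at 0 in 0 of 12 at S3, 1 of 12 at S4 and 8 of 12 at S5.

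Glyma.20G158700 is closest to a lectin receptor kinase family protein of Arabidopsis and to the mannose lectin FRIL of common bean. It was the weakest member in counts, with 61.9, 84.5 and 44.6 at S1 in 3mlpa and 97.7, 36.1 and 44.3 in 3MWT. The 1mlpa values were 108, 135 and 90.8, against 31.9, 100.2 and 35.5 in 1MWT. At S2 it was at 8.09, 17.5 and 19.8 in 3mlpa and 0, 2.58 and 2.69 in 3MWT, and no library of the 2 lines overlapped. The share of all genes without overlap at S2 was not computed. At S1, 17.8% of the 27586 genes had all 3mlpa libraries above all 3MWT libraries, and 24.8% had all below. The selection used the S2 means, and this gene only just passed in 3mlpa. At S4 and S5 a single library of 12 had a read at each stage.

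The selection did not use the step between S3 and S4, but it left members with few reads at either stage, and they passed the filter on low counts through their S1 libraries. In one edgeR quasi-likelihood fit of all 60 libraries, a gene was called at a Benjamini-Hochberg adjusted p under 0.01 and a log2 change above 1 in size, and 0 of 6 members were called between S4 and S3 in 3mlpa (1.4% of 40517 tested genes called), 3MWT (1.19%), 1mlpa (4.69%) or 1MWT (3.12%). In 3mlpa, Glyma.19G127900 and Glyma.20G158700 had no read at S3 or S4 and could not be called. At an unadjusted p under 0.05 the counts of members were 0, 0, 0 and 2, beside 21.9%, 22.4%, 33.3% and 30.7% of tested genes, and DESeq2 called 0 in each line. The count of 0 therefore says little about these genes. The nearest was Glyma.09G225400 in 1MWT, with 2.19, 3.5 and 4.31 normalised counts at S4 and 26.8, 16.5 and 21.3 at S3 (log2 change -2.63, SE 0.94, adjusted p = 0.0474), which was called when those groups were fitted alone (-2.65, adjusted p = 0.00109). Its S4 and S3 libraries did not overlap. The S4 mean was below the S3 mean for 6 of 6 members in 3MWT, 1mlpa and 1MWT, many of them near 0 counts. In 3mlpa it was below for 3 of 6, with Glyma.19G127900 and Glyma.20G158700 at 0 and Glyma.09G225400 at 19.2 against 17.9. Among all called genes, 457 of 567 fell in 3mlpa, 187 of 484 in 3MWT, 1277 of 1901 in 1mlpa and 544 of 1264 in 1MWT. The shares of all genes without overlap or with a lower S4 mean were not computed.

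**Figure D3:**
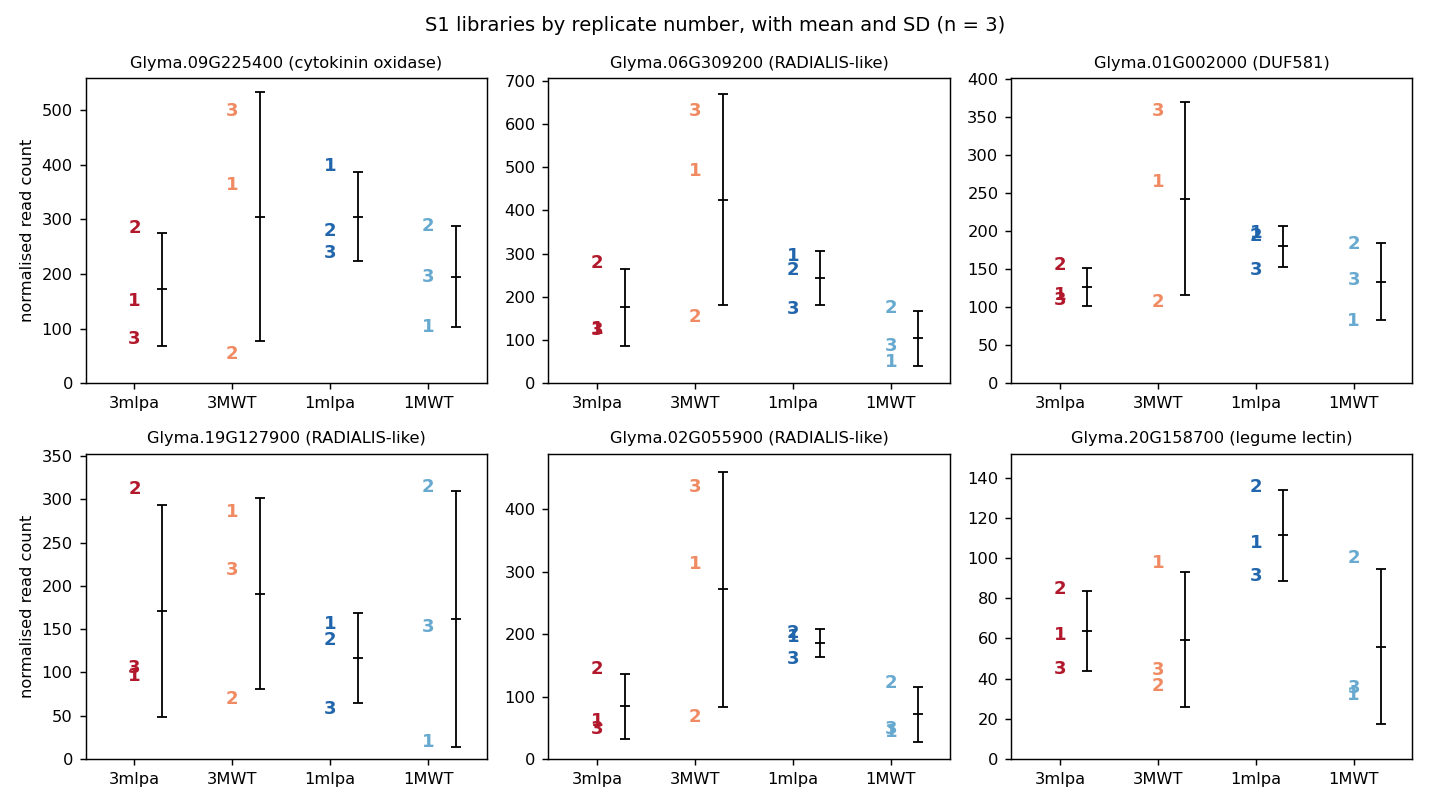
Normalised read counts of the 6 members at S1 by line, each library drawn as its replicate number, with the mean and SD (n = 3) beside it. Replicates 1 and 3 of 3MWT lie above every 3mlpa library for Glyma.09G225400, Glyma.06G309200, Glyma.01G002000 and Glyma.02G055900, and replicate 2 of 3MWT lies below the 3mlpa mean for all 6.

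The mutant and non-mutant lines were compared to ask whether the low phytic acid genotypes changed these genes. The selection compared no lines with each other, but it used the S1 mean of each line, which had to reach 50, so the members are not a free sample for line differences at S1. At S1, 1 of 6 members was called between 3mlpa and 3MWT, where 6.21% of tested genes were called. This was Glyma.02G055900, lower in 3mlpa with a log2 change of -1.70 (SE 0.49), with an adjusted p of 0.009995 that lies at the threshold. Its 3mlpa and 3MWT libraries overlapped, and the call was lost when any of 4 of the 6 libraries was left out, 3mlpa replicates 1 and 3 and 3MWT replicates 1 and 3 (adjusted p 0.0535, 0.0638, 0.0342 and 0.109), and with DESeq2 (0.0318). Without 3MWT replicate 2, the library that stood apart most, the change was -2.17 (adjusted p = 0.000612). Glyma.06G309200 had a log2 change of -1.28 (SE 0.46, adjusted p = 0.0332) and Glyma.01G002000 of -0.94 (SE 0.39, adjusted p = 0.0663), and neither passed, although Glyma.06G309200 did without 3MWT replicate 2 (-1.69, adjusted p = 0.00532). The other members were at -0.83 (Glyma.09G225400), -0.17 (Glyma.19G127900) and 0.08 (Glyma.20G158700), with adjusted p from 0.249 to 0.931, and leaving out single libraries turned the sign for Glyma.19G127900 and Glyma.20G158700.

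Between 1mlpa and 1MWT at S1, 0 of 6 members were called (0.289% of tested genes), with 2 of 6 at an unadjusted p under 0.05 (10.6% of tested genes) and 0 called by DESeq2. The largest log2 changes were 1.37 for Glyma.02G055900 (SE 0.50, adjusted p = 0.21) and 1.22 for Glyma.06G309200 (SE 0.47, adjusted p = 0.253). The 2 RADIALIS-like genes that matched RAD-like 1 thus had values of opposite sign in the 2 pairs. The mean was higher in 1mlpa than in 1MWT for 5 of 6 members and lower in 3mlpa than in 3MWT for 5 of 6. Over all tested genes the median log2 change was 0.0078 for 1mlpa against 1MWT and -0.026 for 3mlpa against 3MWT. The members shared these libraries and are not independent, and the share of all genes with either order was not computed.

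The difference of these line effects between the pairs was tested as an interaction in the same fit. It was called for 2 of 6 members, where 6.48% of tested genes were called. Glyma.02G055900 had a difference of -3.07 on the log2 scale (SE 0.70, adjusted p = 0.00204) and Glyma.06G309200 of -2.50 (SE 0.66, adjusted p = 0.00576). For both the log2 change was negative in the first pair and positive in the second. Among the other members, Glyma.01G002000 was at -1.37 (adjusted p = 0.07), Glyma.09G225400 at -1.48 (0.159), Glyma.20G158700 at -0.90 (0.408) and Glyma.19G127900 at 0.30 (0.866). Leaving out 3MWT replicate 3 ended both calls (adjusted p 0.0137 and 0.032), and a fit of the 12 S1 libraries alone called neither (0.0305 and 0.0399). The call of Glyma.06G309200 was also lost without replicate 1 or 3 of 3mlpa, replicate 1 of 3MWT, replicate 1 or 2 of 1mlpa, or replicate 1 or 3 of 1MWT (adjusted p 0.0121 to 0.0207), and with DESeq2 (0.0173). The pairs differ in genetic background and sequencing effort as well as in the mutations, and these cannot be told apart.

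**Figure D4:**
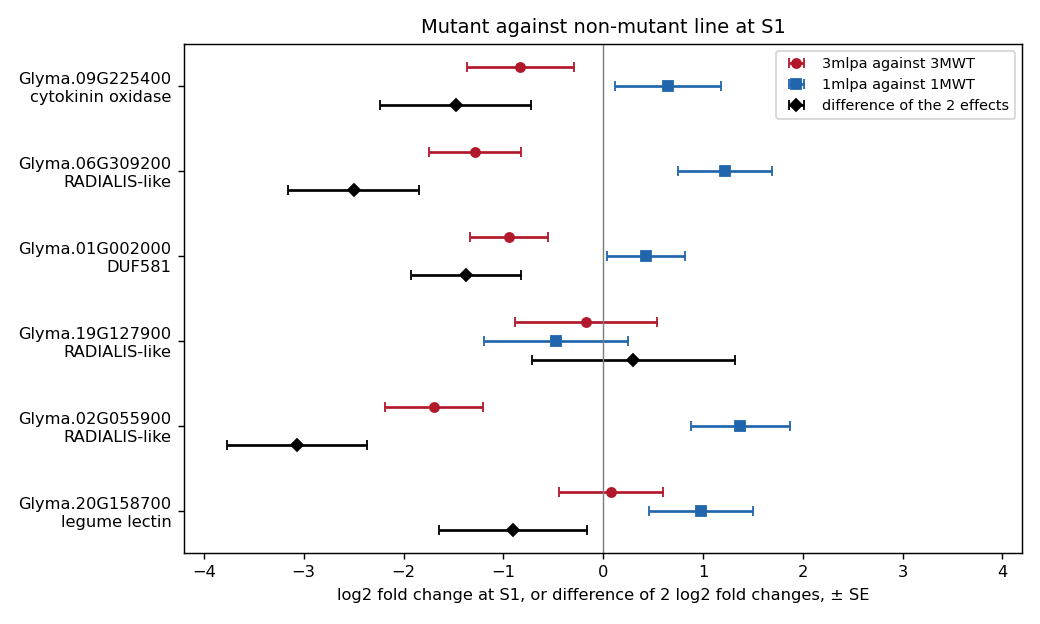
Log2 fold changes at S1 of 3mlpa against 3MWT (circles) and of 1mlpa against 1MWT (squares), and the difference of the 2 effects (diamonds), with SE bars, for the 6 members. The diamonds of Glyma.06G309200 (-2.50) and Glyma.02G055900 (-3.07) lie farthest from 0.

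At later stages the members had far fewer reads in both lines of a pair, at S2 and S5 by the selection itself, and counts of calls there say little about them. Between 3mlpa and 3MWT the counts were 0 of 6 at S2 (4.71% of tested genes called), S3 (4.52%), S4 (2.36%) and S5 (4.27%), with 1, 1, 1 and 0 members at an unadjusted p under 0.05, beside 35.7%, 37.1%, 26.7% and 35% of tested genes. At S4, 3 of 6 members had no read in either line and could not be called, and at S5 1 of 6. DESeq2 called 1, 0, 1 and 0 members, among 2117, 1992, 1180 and 1916 genes in all. The S2 call was the lectin gene Glyma.20G158700, higher in 3mlpa by a log2 change of 2.89 (SE 0.81) with an adjusted p of 0.0106 that just missed the threshold in the edgeR fit. In edgeR it passed without 3mlpa replicate 1 (adjusted p = 0.00941). The S4 call was Glyma.09G225400, higher in 3mlpa by 4.14 (SE 1.36, edgeR adjusted p = 0.0365), on 0 counts in 2 of 3 3MWT libraries. This value was 3.12 without 3mlpa replicate 3 (adjusted p = 0.204) and 7.27 without 3MWT replicate 2 (0.0553).

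Between 1mlpa and 1MWT the counts were 0 of 6 at S2 (0% of tested genes called), S3 (0.00247%), S4 (0.074%) and S5 (0%), where 1 member had no read in either line at S5, with 1, 1, 1 and 0 members at an unadjusted p under 0.05, beside 12.5%, 9.31%, 14.3% and 3.18% of tested genes, and 0 called by DESeq2 at each stage. That member was Glyma.01G002000 each time, with log2 changes of -2.21 at S2 (SE 0.53, adjusted p = 0.102), -1.72 at S3 (0.479) and -2.39 at S4 (0.25). Without 1MWT replicate 3 at S2, its change was called (adjusted p = 0.00197). That library was the lowest of the 3 for 6 of 6 members at S2. The S2 mean was lower in 1mlpa than in 1MWT for 6 of 6 members and higher in 3mlpa than in 3MWT for 6 of 6, the reverse of the S1 order for most members, and for each member the ratio of S1 to S2 was smaller in 3mlpa than in 3MWT and in 1MWT than in 1mlpa. As an example, the S1 mean of Glyma.01G002000 was 5.27 times the S2 mean in 3mlpa, against 12.0 times in 3MWT, while it was 29.5 times in 1mlpa, against 4.67 times in 1MWT. These orders are not a separate result, because the selection used the S1 and S2 means and the members shared libraries. The share of all genes with either S2 order was not computed.

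Several genes lay close to the thresholds on either side. Just inside were Glyma.20G158700, whose S1 mean was 4.2 times the S2 mean in 3mlpa, Glyma.09G225400 at 4.33 times in 1MWT and Glyma.01G002000 at 4.67 times in 1MWT. Just outside was Glyma.U025800, a homolog of SPL4, a squamosa promoter binding factor, whose S1 mean was 15.99 times the S5 mean in 3mlpa. It was followed by Glyma.11G045000, without annotation (S1 over S2 of 3.92 in 1MWT), the protein phosphatase 2C gene Glyma.10G004200 (3.89 in 1MWT), the homolog of MUM2, a beta-galactosidase of the Arabidopsis seed coat (Glyma.04G208400, S1 over S5 of 15.2 in 3mlpa), and Glyma.08G304800, with no annotation and an S1 mean of 45.7 in 3MWT. A fall of at least 4 times between S1 and S2 in all lines was rare, with 10 of the 27586 genes that had an S1 mean of at least 50 in every line (0.0363%).

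None of the 9 gene lists examined beside the members held any of them. Among list genes with the S1 minimum in every line, those with that 4 times fall in all lines numbered 1 of 21 in the seed coat list (the MUM2 homolog), 0 of 2 among endosperm and zygotic regulators, 0 of 18 among floral organ identity genes, 0 of 12 in the pollen and anther list and 0 of 33 in the wound, touch and jasmonate list. They numbered 0 of 105 among cell cycle and histone genes, 0 of 70 among light harvesting genes, 0 of 42 among storage and oil body genes and 0 of 16 among cell wall invertases and SWEET transporters. The median S2 level over the floral list was 75.0% of S1 for 3mlpa against 45.1% for 3MWT, and 62.3% for 1mlpa against 80.5% for 1MWT. Over all 27586 genes it was 100.2% for 3mlpa against 98.7% for 3MWT, and 99.0% for 1mlpa against 99.8% for 1MWT.

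**Figure D5:**
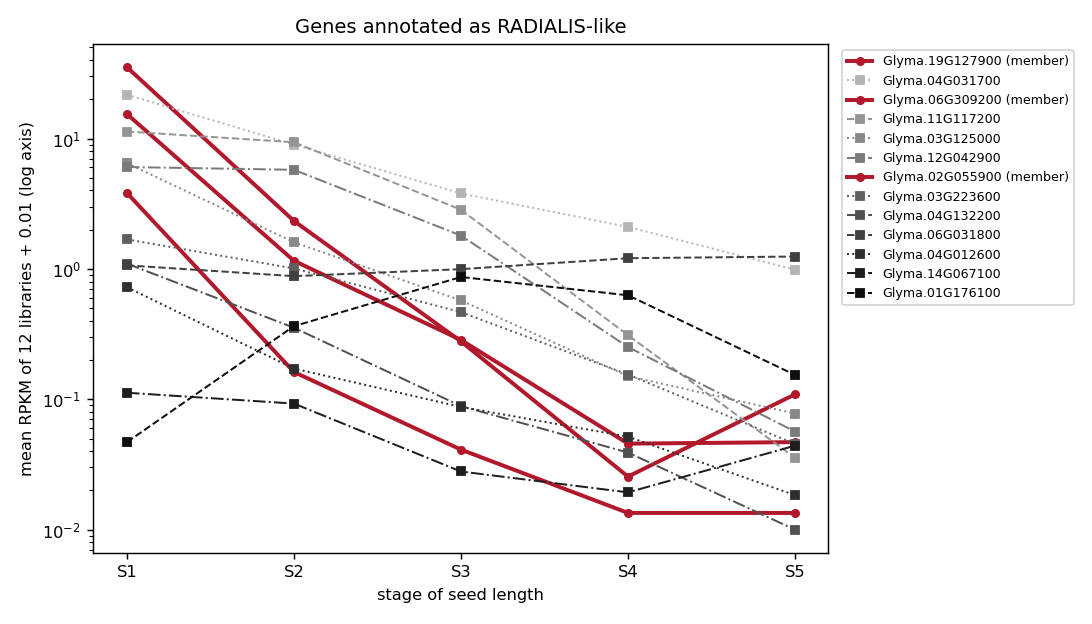
Mean RPKM plus 0.01 (log axis) over the 12 libraries of each stage for the 13 genes annotated as RADIALIS-like, with the 3 members as thick lines with circles and the other 10 as thin lines with squares. The members fall most steeply between S1 and S2, which is how they were chosen, and several others fall later.

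The relatives of the members were grouped by annotation words after the members were known. Annotation text was given for 13166 genes, mostly ones the authors called as changed. The counts of relatives below thus cover annotated genes and cannot show how common the pattern was in a whole family. The share of all genes highest at S1 in all 4 lines was not computed. Close copies may share reads, which was not tested. Of 13 RADIALIS-like genes, 9 had their highest mean at S1 in all 4 lines, and 6 of the 10 that were not members kept more than 50% of their S1 RPKM at S2. Glyma.04G031700, the most abundant at S1 of the 10, had mean RPKM of 21.7, 8.98, 3.78, 2.09 and 0.976 at S1, S2, S3, S4 and S5. Glyma.11G117200, like Glyma.19G127900 a match to RAD-like 6, stayed at 11.3 and 9.36 at S1 and S2 and was at 0.300 at S4 and 0.0256 at S5. Its later course thus differed from that of the member. Glyma.01G176100 had the opposite course, with 0.0369 RPKM at S1 and 0.857 at S3.

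Of 14 cytokinin oxidase genes, 6 were highest at S1 in all lines. The homolog of CKX3 Glyma.17G054500 was the most abundant at S1, with RPKM of 20.9, 3.74, 1.07, 0.406 and 0.334 from S1 to S5, and missed the selection. Of the 2 other genes with the same Arabidopsis match as Glyma.09G225400, Glyma.12G011400 had 1.16, 0.516, 0.235, 0.0517 and 0.0150 RPKM. The other, Glyma.11G149100, had 0.266, 0.436, 0.436, 0.331 and 0.276 RPKM and was not highest at S1 in any line. Of 15 DUF581 genes, 12 were highest at S1 in all lines, yet 12 of the 14 others kept more than 50% of their S1 RPKM at S2, among them Glyma.15G179800, with the same Arabidopsis match as the member, at 5.37 and 4.06 RPKM. Of 22 genes with a legume lectin domain, 7 were highest at S1 in all lines, and 18 of the 21 others kept more than 50% at S2. Glyma.17G224300, with the same Arabidopsis match as the member, had a like course to S2, with 3.38, 0.503, 0.113, 0.126 and 0.102 RPKM from S1 to S5. The lectin gene Glyma.02G012600 ran the other way, with RPKM of 16.0, 339, 1615, 3232 and 4454 from S1 to S5.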

How the data were processed

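Single-end reads were aligned by the authors to the soybean reference genome (STAR 2.4.2), and featureCounts 1.4.6 gave the read counts deposited for each gene, which are not normalized. The RPKM values, scaled to gene length and library total, were deposited by the authors and are used only to compare levels between genes. The deposited tables of the authors' own fold changes were read for gene annotation text alone, and their network and enrichment tables were not used. The annotation covers 13166 genes, mostly ones the authors called.

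Counts were divided by median-of-ratios size factors for the selection. Tests were run with edgeR 4.0.16 (R 4.3.3), fitting 1 mean for each of the 20 groups, with TMM normalization and filterByExpr, which kept 40517 of 56044 genes and all 6 members. DESeq2 1.42.0, other scalings, no filter, fits of the compared groups alone, a replicate block and leaving out each library were tried. The edgeR fit was tested on simulated data for 3mlpa against 3MWT at S1. For libraries of S2 to S5 left out in turn, the gene set and trended dispersions of all 60 libraries were kept. A zero group was bounded by 3 counts over its 3 libraries. Tables were handled in Python 3.11.15 with pandas 2.3.3 and numpy 2.4.6.

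All members are named, with the 3 nearest the thresholds inside and the 5 nearest outside. No list gene is named for itself, and relatives in the families were named after their values were seen. The members and lists were chosen with earlier results of these data known. In 3 columns the name carried a suffix beyond its line, stage and replicate. No column of values was left out for want of a sample.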

Additional observations from a re-analysis of the deposited data

Results flagged for a closer look

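The line effect at S1 was called as different between the pairs for 2 of the 6 genes, by the interaction term of the edgeR fit, where 6.48% of tested genes were called. For Glyma.02G055900 the log2 difference (3mlpa against 3MWT, minus 1mlpa against 1MWT) was -3.07, and for Glyma.06G309200 it was -2.50. Both are RADIALIS-like genes with the same best match in Arabidopsis, so they are not independent genes, and reads shared between them were not tested. In 3MWT, replicate 2 was the lowest of the 3 S1 libraries for both, and without it the differences were -3.54 and -2.91. Both calls were lost without 3MWT replicate 3 (edgeR adjusted p 0.0137 and 0.032) and in an edgeR fit of the S1 libraries alone (0.0305 and 0.0399). The call of Glyma.06G309200 was also lost without several other single S1 libraries and with DESeq2 (adjusted p 0.0173). The selection used the S1 mean of each line, so the genes are not a free sample for this comparison. The part of library quality, genetic background and sequencing effort was not tested, and the last 2 cannot be told apart from the pair.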

How the results depend on the processing

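The number of genes selected was 12 with total count scaling, which kept the 6 members, and 11 with an S1 minimum of 20. Medians of the 3 libraries in place of means gave 5, of which 3 were among the 6, and an S1 minimum of 100 gave 4. It ranged from 1 to 14 when single libraries were left out, with 1 without 1MWT S1 replicate 2, 2 without 1MWT S2 replicate 3, and 13, 13 and 14 without 1MWT S1 replicate 1, S2 replicate 1 and S2 replicate 2. Glyma.20G158700 was also lost without 3mlpa S1 replicate 2, 3mlpa S2 replicate 1 or 3MWT S1 replicate 1. Leaving out any library of S3 to S5 kept all 6 members. The selection used no S3 or S4 mean, so libraries of these stages could act only through the size factors. The next settings were chosen after seeing the data. Leaving out 3mlpa replicate 2, 3MWT replicate 2 and 1MWT replicate 1 at S1, the 3 libraries that stood apart in the members' own sums, gave 10. Leaving out the 3 libraries with a suffix in their names gave 2.

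Members called between 3mlpa and 3MWT at S1 numbered 0 with DESeq2 size factors in edgeR, the DESeq2 test, no filter and the compared groups alone. The count was 1 with the replicate block and 0 to 2 without single libraries. Without the 3 libraries named above it was 2, but leaving out the low 3MWT and the high 3mlpa library widens this difference by construction. At S2 the members called between these lines numbered 1 with DESeq2, the replicate block and the compared groups alone. They numbered 0 to 1 at S2 without single libraries, and 1 at S4 with DESeq2. Between 1mlpa and 1MWT at S2 they numbered 0 to 1 without single libraries. In the interaction they numbered 1 with DESeq2, 0 with the compared groups alone, 2 with the replicate block and 0 to 2 without single libraries. S4 against S3 in 1MWT gave 1 with the compared groups alone. Replicate numbers were not used as pairs in the main fit. In 0 of 14 comparisons did every same-numbered pair correlate above 0.1 (range -0.304 to 0.48). This cannot show that no samples were paired, since some comparisons had higher values, such as 0.397, -0.086 and 0.443 for S4 against S3 in 3mlpa.

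Signs were followed across settings only for values at S1 and for other values with an unadjusted p under 0.05 in the main fit. Among these, signs turned only for Glyma.19G127900 and Glyma.20G158700. Without single libraries, Glyma.19G127900 ranged from -0.94 to 0.24 for 3mlpa against 3MWT at S1 and from -0.99 to 0.48 for 1mlpa against 1MWT. In the interaction it ranged from -0.65 to 0.81 (-0.34 without the 3 libraries). Glyma.20G158700 ranged from -0.19 to 0.65 for 3mlpa against 3MWT at S1 (-0.44 without the 3 libraries). The other values followed kept their sign. Most values outside S1 were not followed. At S3 to S5 the members had a few reads per library, and some had none in both groups compared.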

Other observations

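Taken line by line, the selection kept 91 genes for 3mlpa against 194 for 3MWT, 213 for 1mlpa against 41 for 1MWT, and 350 genes in at least 1 line. Of these, 208 passed in exactly 1 line, 101 in 2 and 35 in 3. The lines with few passing genes, 3mlpa and 1MWT, were also the ones with the smaller ratio of S1 to S2 within their pair for 6 of 6 members. Because the selection set a minimum for this ratio, the order in the members is not a separate result. Among all 27586 genes with an S1 mean of at least 50 in every line, the S2 mean was at or under 25% of S1 for 45 in 3mlpa, against 259 in 3MWT, and for 210 in 1mlpa, against 18 in 1MWT.

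The SPL4 homolog Glyma.U025800, the gene nearest to the selection from outside, had the same order of lines at S1 as Glyma.02G055900 within each pair. Its mean normalised count was 109 in 3mlpa against 508 in 3MWT, and 158 in 1mlpa against 61.9 in 1MWT. At S2 it was between 5.04 and 8.89 in all 4 lines. The RADIALIS-like gene Glyma.03G125000, which was not a member, was instead low in both lines of the first pair at S1, with 30.0 in 3mlpa and 59.0 in 3MWT, against 133 in 1mlpa and 141 in 1MWT.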
